A study of Mus musculus with 17 samples.

Results

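Lysosome and autophagy genes were followed across 3 culture surfaces in E11 cells, a mouse podocyte line. The 36 genes were chosen by function, with earlier results of these data known. Their shares beside those of all genes are therefore descriptions and not tests. They were lysosomal hydrolases and their activators (13 genes), lysosomal membrane proteins (4) and subunits of the proton pump (5). The others were autophagy machinery (12) and the transcription factors Tfeb and Tfe3. All 36 matched a single row of the 56748 genes in the count table, and 35 passed the filter on low counts that left 15196 genes for testing. The exception was Ctsz (a lysosomal carboxypeptidase), with 62 counts summed over 17 libraries.

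Cells were grown on polydimethylsiloxane (PDMS), a silicone, with no topography (NT, 5 libraries), round features with no fractal shape (RT, 6 libraries) or a high fractal topography traced from healthy glomerular histology (HF, 6 libraries). All groups share the cell line and the silicone, and no drug, allele or time point is given for any of them. A single cell line was used, and whether the numbered replicates are separate cultures is not stated, so the p-values set differences only against the spread among these libraries, and that spread can be technical. Poly-A RNA was read in libraries that do not keep the strand.

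Lysosomes are acid compartments in which hydrolases break down proteins, glycans and lipids, and a proton pump in their membrane keeps them acid. Autophagy delivers parts of the cell to them: a kinase complex and a lipid scramblase start a membrane sheet, proteins of the LC3 and GABARAP families are coupled to it, and cargo receptors such as Sqstm1 bind both cargo and sheet. Tfeb and Tfe3 bind E-box letters in promoters of many of these genes and are held back by the kinase mTORC1. Podocytes divide little in the adult glomerulus and are known for high autophagy.

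Total counts ran from 14.9 to 24.1 M per library. Of 6 podocyte markers, which summed to 656 to 748 CPM in NT, 669 to 686 CPM in RT and 639 to 668 CPM in HF, Synpo stood between 243 and 308 CPM (counts relative to TMM-scaled library totals) and Wt1 between 93.8 and 117 CPM over the 17 libraries. Of 6 macrophage markers, a cell type rich in lysosomal transcripts, Adgre1 and C1qa were at 0 in every library, Ptprc reached 0.186 CPM and Lyz2 0.115 CPM, while Csf1r averaged 39.4 CPM on NT, 50.8 on RT and 45.8 on HF, and Cd14 72.5, 65.4 and 67.5. The 6 summed to between 105 and 117 CPM in NT, 110 and 122 CPM in RT, and 107 and 118 CPM in HF, and their part in the results was not tested. The 6 endothelial markers together reached at most 0.677 CPM. The 6 tubule markers summed to between 1255 and 1517 CPM in NT, 1310 and 1443 CPM in RT, and 1280 and 1472 CPM in HF, nearly all of it from Cdh16 (922 to 1030 CPM over the 17 libraries) and Lrp2 (270 to 484 CPM), with Slc34a1 and Aqp2 at 0. The part of the tubule markers in the results was not tested either.

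Library NT 1 stood apart within its group. It was the lowest NT library for 16 of the 35 tested members, and the 36 members summed to 10056 CPM in it against 10761 to 11082 CPM in the other 4 NT libraries. Each member past the threshold against NT is therefore given with and without it. Library RT 5 stood out upward: it was the highest RT library for 15 of the 35 tested members, and the 36 members summed to 11476 CPM in it against 10975 to 11141 CPM in the other 5 RT libraries. Without RT 5 the same 5 members passed in RT against NT (adjusted p between 0.00308 and 0.0437). On HF the sums ran from 10963 to 11331 CPM. In bulk RNA, a change in the share of cells that hold a transcript and a change in its amount per cell cannot be told apart.

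Levels of the members spanned a wide range. Per kilobase of exonic length, Psap (prosaposin, the precursor of activators of sphingolipid breakdown) was the highest at 1052 ± 56.4 CPM per kb on NT (SD, n = 5), followed by Ctsd (cathepsin D, an aspartic protease) at 339, Sqstm1 (the cargo receptor p62) at 233 and Lamp1 (a glycoprotein that lines the lysosomal membrane) at 197. Of the GABARAP and LC3 family members, Gabarap and Gabarapl1 stood at 119 and 101 CPM per kb on NT, above Map1lc3a and Map1lc3b at 37.1 and 31.5. In CPM not divided by length, Map1lc3b (237) stood above Gabarap (219) and Gabarapl1 (204) on NT, and Map1lc3a (43.8) below them. The 2 copies of the ATG9 scramblase differed, with Atg9a at 6.48 and Atg9b at 0.244 CPM per kb. In GENCODE M21, 32.6% of the exonic bases of Atg9a and 34.4% of those of Ctsd overlap other genes. How reads in such bases were counted is not stated. Tfe3 stood at 10.4 and Tfeb at 5.38 CPM per kb. Ctsz was the lowest at 0.0862 CPM per kb. Lengths came from all exons of a gene in GENCODE M21, so an order, even across a wide gap, can depend on the transcript that was read.

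**Figure D1:**
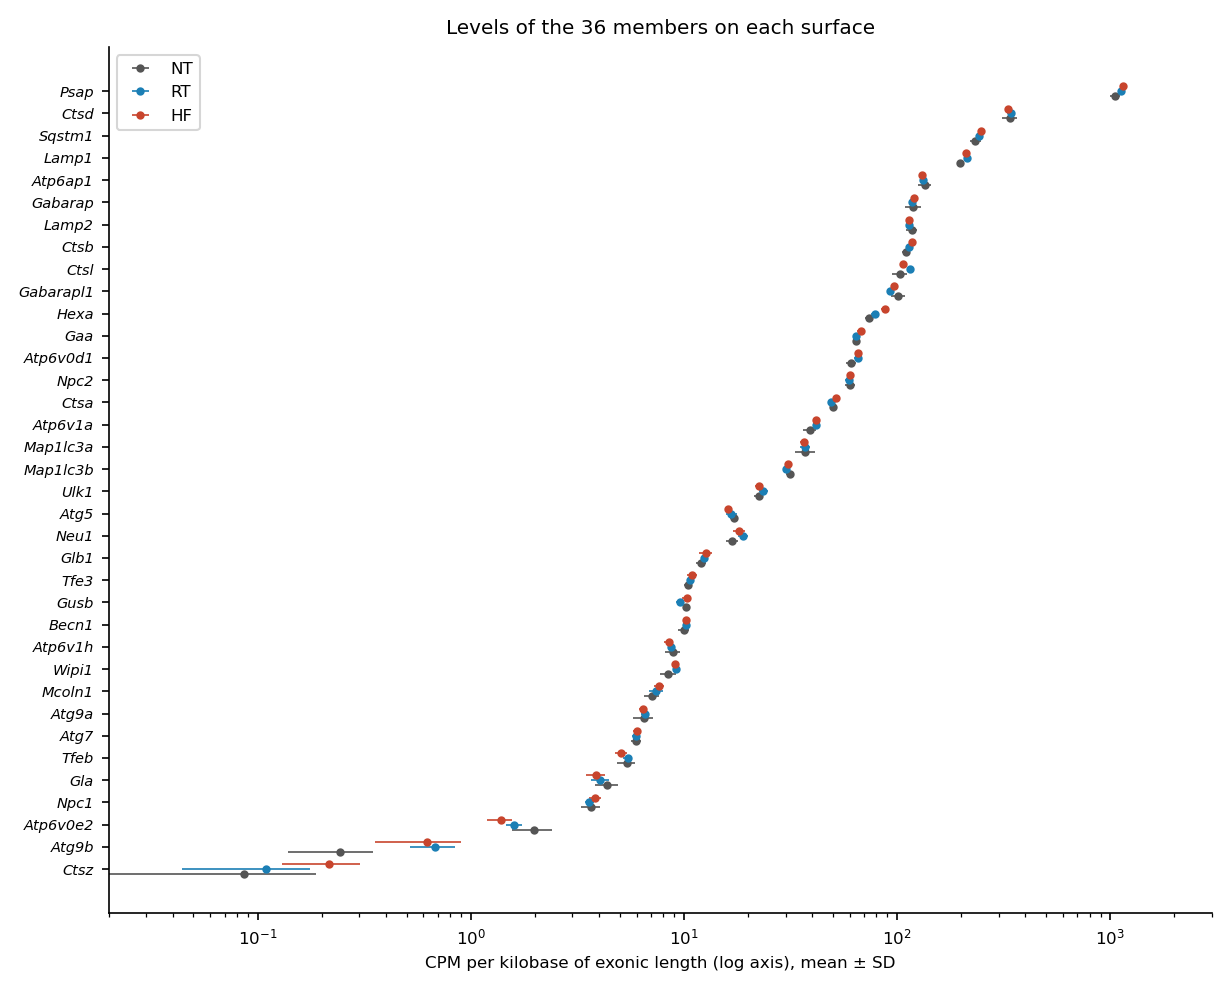
Mean ± SD of CPM per kilobase of exonic length (log axis) for the 36 members on NT (n = 5), RT (n = 6) and HF (n = 6), ordered by the NT mean. Ctsz and Atg9b are at the bottom and Psap at the top, and Ctsz on NT has an SD above its mean, so its lower bar runs off the axis.

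Promoter letters were read because Tfeb and Tfe3 are known to bind the E-box CACGTG in longer forms, GTCACGTG and the full palindrome known as the CLEAR consensus. The RefSeq promoter table (GRCm38.p6, 250 bases before to 50 after each start) held 31 of the 36 members. On either strand, CACGTG occurred in 12 of the 31 (38.7%) against 8.09% of all 27025 genes with a window, and GTCACGTG, each copy of which also holds CACGTG, in 8 of the 31 (25.8%) against 2.55%. These 8 were Ctsa, Ctsd, Gla, Glb1, Lamp1, Mcoln1, Atp6v0d1 and Atg7. The full palindrome was in 0 of the 31, and in 0.37% of all genes. A match is a description of the letters and not a binding site.

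The sequences below are printed to show the members whose levels differed between surfaces beside members that carry the letters. Each runs 5′ to 3′ on the strand of the gene and holds only bases before the RefSeq start. Capitals mark CACGTG and, where present, the longer form on either strand. The first 4 are the 150 bases before the start of members past the threshold.
Lamp1 (chr8:13159011-13159160, plus strand): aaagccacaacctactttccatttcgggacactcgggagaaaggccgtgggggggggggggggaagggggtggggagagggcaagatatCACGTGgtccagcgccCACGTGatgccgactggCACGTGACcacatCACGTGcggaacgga
Hexa (chr9:59539390-59539539, plus strand): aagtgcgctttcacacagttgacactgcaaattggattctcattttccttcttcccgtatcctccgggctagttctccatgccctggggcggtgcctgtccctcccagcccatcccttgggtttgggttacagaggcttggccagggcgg
Neu1 (chr17:34931103-34931252, plus strand): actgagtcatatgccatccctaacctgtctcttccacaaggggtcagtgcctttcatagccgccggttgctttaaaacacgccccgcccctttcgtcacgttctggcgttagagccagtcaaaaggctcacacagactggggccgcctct
Atg9b (chr5:24392144-24392293, minus strand): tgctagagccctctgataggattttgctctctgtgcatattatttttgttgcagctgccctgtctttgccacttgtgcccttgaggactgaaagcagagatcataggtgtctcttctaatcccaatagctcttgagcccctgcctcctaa
Lamp1 held 4 copies of CACGTG, which began 61, 45, 28 and 15 bases before the start. Hexa, Neu1 and Atg9b held none in these bases, nor in the rest of their windows. The next sequences surround GTCACGTG in 4 members that did not pass the threshold in any comparison, and in Igf2r, a gene of the wider pathway that did.
Mcoln1 (chr8:3500416-3500511, plus strand): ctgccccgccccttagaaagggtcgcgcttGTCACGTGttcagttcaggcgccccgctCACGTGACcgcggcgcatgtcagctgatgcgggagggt
Ctsd (chr7:142387888-142387955, minus strand): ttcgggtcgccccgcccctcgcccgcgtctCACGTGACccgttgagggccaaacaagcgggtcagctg
Ctsa (chr2:164833729-164833772, plus strand): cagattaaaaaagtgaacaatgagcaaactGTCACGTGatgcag
Glb1 (chr9:114400998-114401065, plus strand): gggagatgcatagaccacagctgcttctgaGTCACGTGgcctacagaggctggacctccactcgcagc
Igf2r (chr17:12769707-12769786, minus strand): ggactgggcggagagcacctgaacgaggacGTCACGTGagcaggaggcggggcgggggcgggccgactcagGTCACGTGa
Among the 7 members past the threshold in any comparison, all of which had a window, 2 held CACGTG (Lamp1 and Ctsl) and 1 held GTCACGTG. In the wider list, 22 of 118 genes with a window held CACGTG (18.6%) and 14 held GTCACGTG (11.9%). Of its genes past the threshold on HF against NT, named below, Igf2r alone was found with CACGTG. On RT against NT, Lamtor1 and Lgmn, also named below, held CACGTG besides Igf2r, and Lgmn held GTCACGTG. Genes without a window could not be read.

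On the fractal surface against the flat one, Hexa and Atg9b rose and Atp6v0e2 fell among the lysosome and autophagy genes. Hexa encodes the alpha chain of beta-hexosaminidase, which removes the terminal sugar of ganglioside GM2. Atg9b is a copy of the ATG9 scramblase that supplies lipid to the growing autophagic membrane. Atp6v0e2 is a small subunit of the membrane part of the proton pump. Changes in the other members were small, and these 3 of 35 stand beside 2.33% of all 15196 genes past the threshold (adjusted p under 0.05, Benjamini-Hochberg over all genes) in this comparison, 1.5% higher and 0.829% lower. Of the members 22 of 35 had a fold change above 0, beside 49% of all genes.

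Hexa stood at 140, 152, 145, 144 and 155 CPM in the 5 NT libraries. On HF the lowest library was at 166 CPM, the median at 174 and the highest at 185. The lowest HF library was above the highest NT library. The log2 fold change was 0.25 ± 0.04 (SE), a fold of 1.19 (edgeR adjusted p = 9.67e-05), and without NT 1 it was 0.23 (adjusted p = 0.000205). In GENCODE M21, 12.8% of the exonic bases of Hexa overlap Tmem202 on the other strand, and Tmem202 stood between 0.505 and 1.17 CPM over all libraries. Reads inside this overlap cannot be told apart without the strand.

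Atg9b stood at 1.48, 0.609, 0.912, 0.529 and 1.27 CPM in NT, from 24, 9, 17, 9 and 22 counts. On HF it ran from 1.30 CPM (HF 2) over a median of 2.24 to 4.03 CPM (HF 4), from 23 to 69 counts. The highest NT library lay above the lowest HF library, so the groups overlapped. Atg9b had a log2 fold change of 1.35 ± 0.29 (SE), a fold of 2.54 (edgeR adjusted p = 0.00999), and 1.55 without NT 1 (adjusted p = 0.00409). Its exons overlap those of Nos3 (the endothelial nitric oxide synthase) on the other strand in 7.45% of their bases. Nos3 had 4 counts in all over the 17 libraries, 1 in NT, 1 in RT and 2 in HF. So the reads of Atg9b were not matched by reads of its neighbour, although reads inside the overlap cannot be told apart without the strand.

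Atp6v0e2 stood at 4.14, 4.54, 4.62, 6.47 and 3.94 CPM in NT, and between 2.80 and 3.99 CPM on HF with a median of 3.33. NT 4 was far above the other NT libraries, and the ranges met between 3.94 and 3.99 CPM. Its log2 fold change was -0.53 ± 0.14 (SE, edgeR adjusted p = 0.0397), and -0.57 without NT 1 (adjusted p = 0.029). Without NT 4 it was -0.39 and did not pass (adjusted p = 0.186). Leaving out NT 2, NT 3 or any HF library but HF 1 also ended the call (adjusted p between 0.0512 and 0.104), as did limma voom (adjusted p = 0.0527) and when RT was left out of the fit (adjusted p = 0.0834).

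Psap and Lamp1 did not pass, although their libraries did not overlap. Psap, the most abundant member, stood at 2619, 2984, 2999, 2927 and 2911 CPM in NT and between 3021 and 3201 CPM on HF, with a median of 3147. Its log2 fold change was 0.12 ± 0.04 (SE, edgeR adjusted p = 0.0707). It passed with DESeq2 (adjusted p = 0.00627), with limma voom (0.0334), with no filter beyond 1 count (0.00987), with the replicate block (0.0395) and without NT 5 (0.0303), while without NT 1 the value was 0.086 (adjusted p = 0.164). Lamp1 was at 0.09 ± 0.03 (SE, adjusted p = 0.0946), although DESeq2 (adjusted p = 0.000405) and limma voom (0.0442) did call it. Hexa, Psap and Lamp1 were the 3 of 35 members without overlap between the libraries of HF and NT, beside 2.18% of all genes.

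The remaining roles gave no further calls. Of the 12 tested hydrolases and activators 1 rose and 0 fell, of the 4 membrane proteins 0 passed, of the 5 pump subunits 0 rose and 1 fell, of the 12 autophagy genes 1 rose and 0 fell, and of the 2 transcription factors 0 passed. The 32 members that did not pass had log2 fold changes between -0.17 (Gla, alpha-galactosidase) and 0.12 (Psap). The median over the 35 members was 0.027 on the log2 scale, and -0.0025 over all genes. At an unadjusted p under 0.05 there were 12 of 35 members, beside 14.2% of all genes. With DESeq2, Ctsb (cathepsin B, a cysteine protease), Lamp1 and Psap passed besides the 3 genes above, which made 6 of 35 beside 4.2% of the 13428 genes to which DESeq2 gave an adjusted p.

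**Figure D2:**
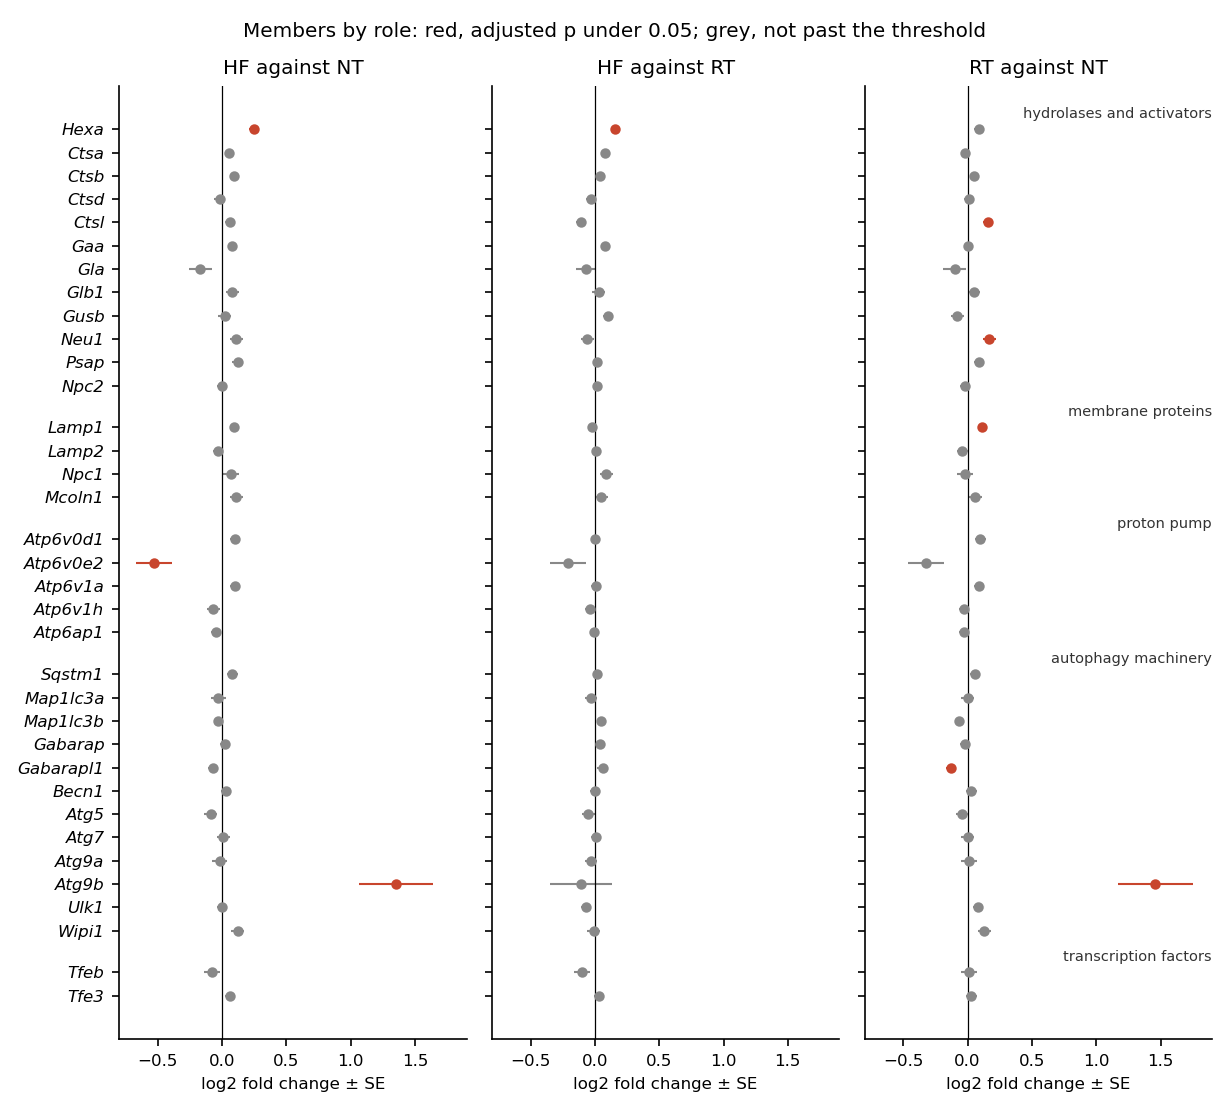
Log2 fold change ± SE (edgeR) of the 35 tested members by role, for HF over NT (left), HF over RT (middle) and RT over NT (right); red marks an adjusted p under 0.05. Red points are Hexa, Atp6v0e2 and Atg9b on the left, Hexa alone in the middle, and Ctsl, Neu1, Lamp1, Gabarapl1 and Atg9b on the right.

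Between the 2 topographies, HF against RT, the only member past the threshold was Hexa. It ran from 149 to 162 CPM on RT with a median of 158, and from 166 to 185 CPM on HF. No HF library was as low as any RT library. This gave a log2 fold change of 0.16 ± 0.03 (SE), a fold of 1.11 (edgeR adjusted p = 0.0334), for 1 of 35 members beside 0.211% of all genes, 0.132% higher and 0.079% lower. Of the members 18 of 35 had a fold change above 0, beside 49.6% of all genes.

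The call of Hexa held with DESeq2, limma voom, RLE size factors, no filter beyond 1 count, a fit of HF and RT alone and the replicate block (adjusted p between 0.00249 and 0.0406). It was lost without RT 1, RT 2, RT 3, RT 4, HF 1, HF 4, HF 5 or HF 6, with fold changes between 0.14 and 0.16 and adjusted p between 0.0602 and 0.119. It was also lost when the libraries numbered 6 were left out together, a setting added with the data in view (0.15, adjusted p = 0.152).

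Ctsl (cathepsin L, a cysteine protease) was lower in every HF library than in every RT library. On RT it ran from 717 to 788 CPM with a median of 743, and on HF from 671 to 715 CPM with a median of 695. A log2 fold change of -0.11 ± 0.04 (SE) did not pass (edgeR adjusted p = 0.348), and passed only in a fit of HF and RT alone (adjusted p = 0.0437). Hexa and Ctsl were the 2 of 35 members without overlap between these groups, beside 0.967% of all genes.

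The other members with the smallest p in this comparison were Gaa and Ctsa. Gaa (acid alpha-glucosidase, which degrades glycogen in lysosomes) ran from 298 to 313 CPM on RT with a median of 309, and from 308 to 348 CPM on HF with a median of 323. Its log2 fold change was 0.08 ± 0.03 (SE, adjusted p = 0.399). Ctsa (protective protein, which holds Neu1 and Glb1 in a complex) ran from 223 to 239 CPM on RT and from 238 to 256 CPM on HF, at 0.08 ± 0.03 (SE, adjusted p = 0.473). The ranges of both genes overlapped. The 34 members that did not pass lay between -0.21 (Atp6v0e2) and 0.10 (Gusb, beta-glucuronidase), with a median over all 35 of 0.0051 against -0.0007 over all genes. At an unadjusted p under 0.05 there were 5 of 35, beside 8% of all genes, and all 5 were hydrolases.

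On the round topography against the flat surface, Atg9b, Ctsl, Neu1 and Lamp1 rose and Gabarapl1 fell. Neu1 is the lysosomal sialidase, which trims sialic acid from glycoproteins and gangliosides. Gabarapl1 belongs to the GABARAP family, which is coupled to autophagic membranes. These 5 of 35 members stand beside 3.97% of all genes past the threshold, 2.53% higher and 1.44% lower. Fold changes above 0 were found in 20 of 35 members and in 49.1% of all genes. The NT libraries are the same as in the comparison of HF with NT, so the 2 comparisons are not independent of each other.

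Atg9b ran from 1.85 to 3.52 CPM on RT with a median of 2.67, from 33 to 59 counts. All 6 RT libraries lay above all 5 NT libraries. RT against NT gave a log2 fold change of 1.46 ± 0.29 (SE), a fold of 2.74 (edgeR adjusted p = 0.00267), and 1.66 without NT 1 (adjusted p = 0.00135). HF against RT gave -0.11 ± 0.24 (SE, adjusted p = 0.969). Over the single libraries left out, Atg9b passed in all 17 fits of RT against NT (adjusted p up to 0.0144) and in all 17 of HF against NT (adjusted p up to 0.0419).

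Ctsl stood at 579, 695, 719, 683 and 665 CPM in NT and from 717 to 788 CPM on RT. NT 1 was far below the others, and NT 3 lay just inside the RT range. For Ctsl the log2 fold change was 0.16 ± 0.04 (SE, edgeR adjusted p = 0.0138), and 0.11 without NT 1 (adjusted p = 0.049). HF against NT gave 0.06 ± 0.04 (SE, adjusted p = 0.585). An antisense gene, Gm47123, overlaps 26.8% of the exonic bases of Ctsl and had 0 counts in every library. How reads in shared bases were counted is not stated, so these 0 counts cannot show whether Gm47123 was transcribed.

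Neu1 stood at 58.6, 68.4, 64.8, 63.4 and 59.7 CPM in NT, and ran from 67.4 to 78.1 CPM on RT with a median of 69.2. The highest NT library lay inside the RT range. For Neu1 the log2 fold change was 0.17 ± 0.05 (SE, edgeR adjusted p = 0.0384). It did not pass without NT 1 (0.14, adjusted p = 0.104), NT 3, NT 4, NT 5, RT 1, RT 2, RT 3 or RT 4 (adjusted p between 0.0538 and 0.112), nor with limma voom (adjusted p = 0.0517).

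Lamp1 stood at 515, 532, 541, 520 and 527 CPM in NT, and ran from 555 to 578 CPM on RT with a median of 569. All 6 RT libraries lay above all 5 NT libraries, as did all 6 HF libraries, which ran from 550 to 566 CPM. The log2 fold change for RT was 0.11 ± 0.03 (SE, edgeR adjusted p = 0.0261), with the smallest spread within groups among the members. The call was lost without NT 1 (0.10, adjusted p = 0.0533), NT 4, RT 2 or RT 4 (adjusted p between 0.0506 and 0.0677) and in a fit of RT and NT alone (adjusted p = 0.0719). Lamp1 carries the row of E-boxes printed above.

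Gabarapl1 stood at 179, 212, 205, 206 and 217 CPM in NT, and ran from 181 to 190 CPM on RT with a median of 187. NT 1 lay below all RT libraries, and the other 4 NT libraries lay above them. For Gabarapl1 the log2 fold change was -0.13 ± 0.04 (SE, edgeR adjusted p = 0.0384), and -0.18 without NT 1 (adjusted p = 0.0011). It did not pass without NT 2, NT 3, NT 4, NT 5, RT 1, RT 2, RT 3, RT 4 or RT 6 (adjusted p between 0.051 and 0.0877), with limma voom (adjusted p = 0.0563) or in a fit of RT and NT alone (adjusted p = 0.0734). On HF it ran from 187 to 201 CPM, at -0.07 ± 0.04 against NT (SE, adjusted p = 0.398). In GENCODE M21, 28.3% of its exonic bases overlap 1700101I11Rik on the other strand, which stayed at or below 0.745 CPM. Here too, reads inside the overlap cannot be told apart.

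**Figure D3:**
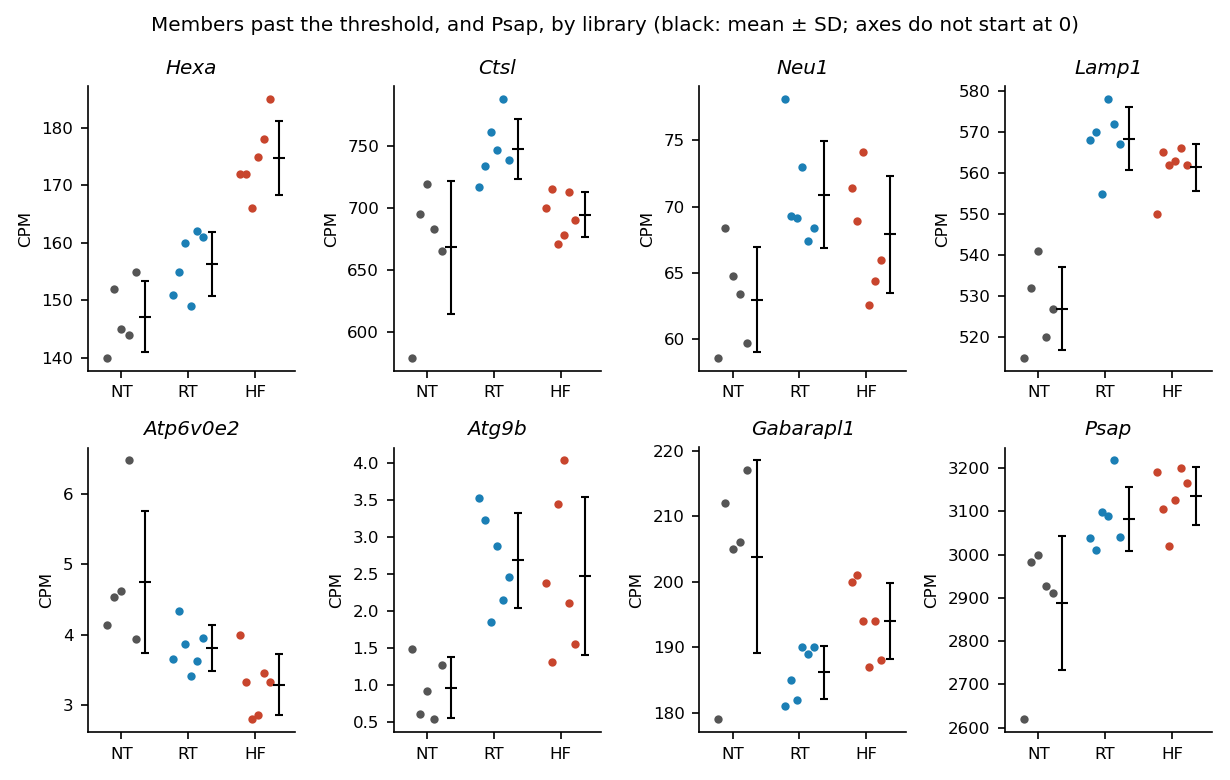
CPM in each library of the 7 members past the threshold in any comparison and of Psap, on NT (grey), RT (blue) and HF (red), with mean ± SD in black and axes that do not start at 0. Hexa is highest on HF, no NT library of Lamp1 or Psap reaches those of either topography, and NT 1 is the low grey point of Ctsl, Gabarapl1 and Psap.

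The other members did not pass on RT. Of 12 hydrolases and activators 2 rose and 0 fell, of 4 membrane proteins 1 rose, of 5 pump subunits 0 passed, of 12 autophagy genes 1 rose and 1 fell, and of the 2 transcription factors 0 passed. Hexa was at 0.09 ± 0.04 (SE, adjusted p = 0.162) and Psap, at 3012 to 3218 CPM with all 6 RT libraries above all 5 NT libraries, at 0.09 ± 0.04 (SE, adjusted p = 0.147), a difference that passed with DESeq2 (adjusted p = 0.042). Psap, Lamp1 and Atg9b were the 3 of 35 members without overlap between RT and NT, beside 3.4% of all genes. The 30 members that did not pass lay between -0.32 (Atp6v0e2) and 0.13 (Wipi1, which binds phosphoinositides on the autophagic membrane). The median over the 35 was 0.014, against -0.0021 over all genes, and 12 of 35 had an unadjusted p under 0.05, beside 17.1% of all genes.

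Tfeb and Tfe3 did not differ past the threshold in any comparison. Tfeb stood at 27.0, 29.8, 29.0, 32.8 and 34.1 CPM in NT, ran from 28.8 to 32.7 CPM on RT and from 26.4 to 30.7 CPM on HF. Tfe3 stood at 100, 93.3, 99.5, 97.0 and 93.5 CPM in NT, from 92.8 to 102 CPM on RT and from 95.0 to 108 CPM on HF. The groups overlapped for both genes. Log2 fold changes of HF against NT were -0.08 ± 0.06 for Tfeb (SE, edgeR adjusted p = 0.588) and 0.06 ± 0.04 for Tfe3 (SE, adjusted p = 0.513). These values are transcript levels and do not measure where the proteins are in the cell, by which both factors are known to be controlled.

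Genes of the core autophagy machinery gave no call beyond Atg9b and Gabarapl1. Becn1 (a subunit of the lipid kinase complex) stood at 70.7 ± 4.28 CPM on NT (SD, n = 5), 72.3 ± 1.96 on RT and 72.1 ± 2.45 on HF (SD, n = 6 each). Ulk1, the kinase that starts autophagy, stood at 145 ± 7.63, 153 ± 6.99 and 145 ± 5.25 CPM in the same order. Sqstm1, which is also degraded by autophagy as a protein, stood at 782 ± 48.2, 815 ± 24.3 and 828 ± 15.7 CPM. Atg9a, the widespread copy of the scramblase, stood at 37.3 ± 3.99, 37.7 ± 1.45 and 36.9 ± 1.40 CPM, where Atg9b stood at 0.962 ± 0.413, 2.68 ± 0.641 and 2.47 ± 1.07 CPM. None of the differences in Becn1, Ulk1, Sqstm1 or Atg9a passed the threshold. Of the exonic bases of Becn1, 43.9% overlap another gene, Cntd1, on the other strand in GENCODE M21.

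**Figure D4:**
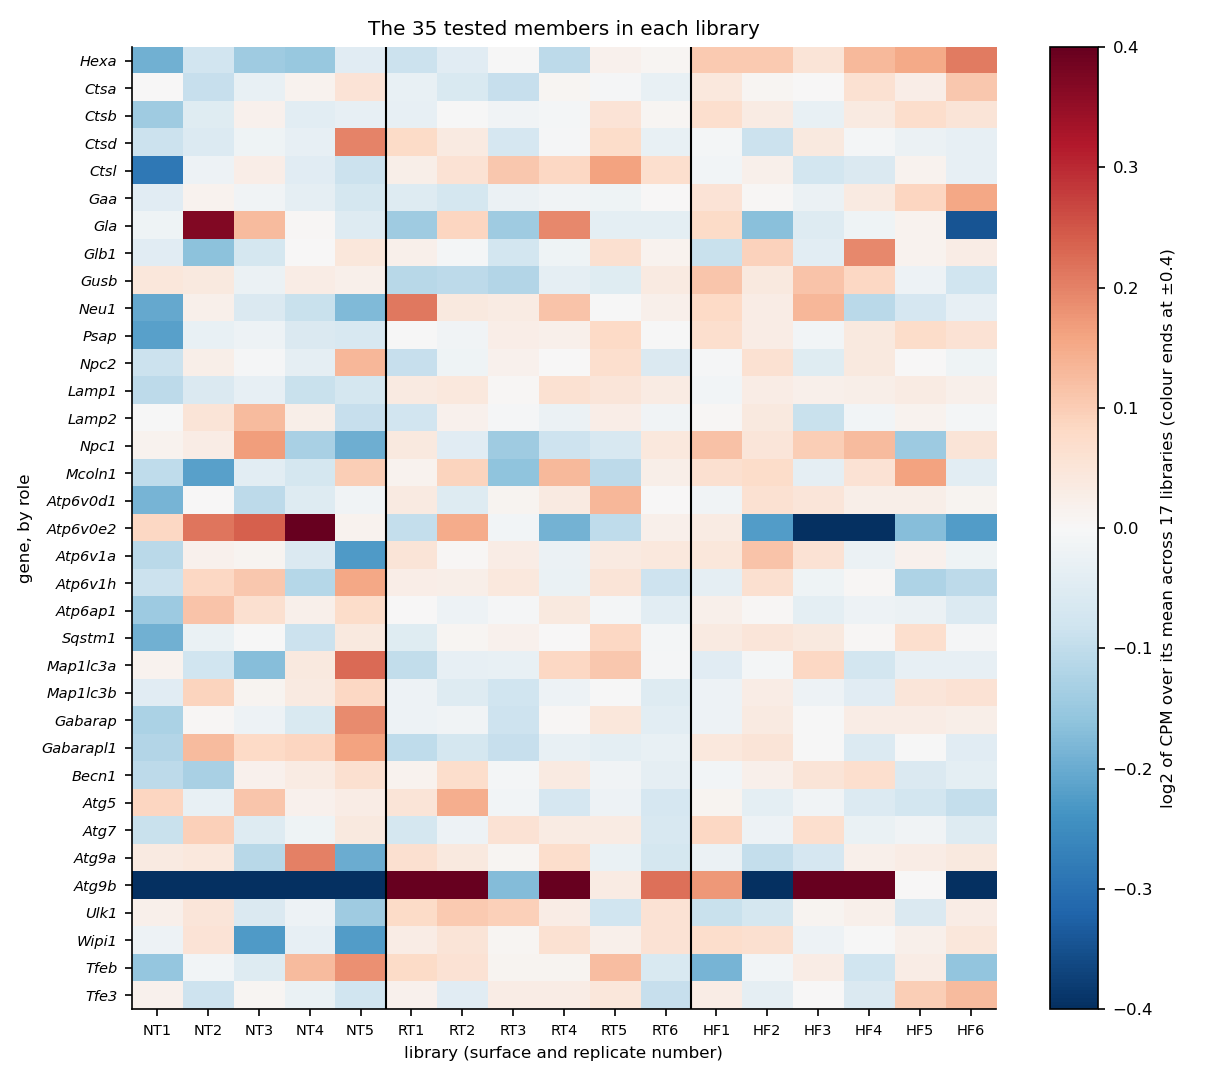
Log2 of CPM over its mean across the 17 libraries (0.1 CPM added) for the 35 tested members in rows, by role, and libraries in columns, with lines between NT, RT and HF and colours that end at ±0.4. The Atg9b row is dark blue in all 5 NT libraries and also in HF 2 and HF 6. The Hexa row turns from blue to red from NT to HF, and NT 1 is blue in many rows.

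A wider list of 144 further lysosome and autophagy genes, of which 136 were tested, was read beside the members. It too was chosen with earlier results of these data known. On HF against NT 6 rose and 0 fell: Flcn, Igf2r, Atp6v0a1, Rragd, Tpp1 and Man2b1. On RT against NT 7 rose and 3 fell. Between HF and RT none passed by edgeR, where 13 of 136 had an unadjusted p under 0.05 (8% of all genes). These counts are 6 of 136 beside 2.33% of all genes and 10 of 136 beside 3.97%.

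Among the genes of the wider list past the threshold, Rragd had the largest fold change. It encodes RagD, a small GTPase that recruits mTORC1 to the lysosome, and Flcn encodes folliculin, which acts on RagC and RagD and by this controls Tfeb and Tfe3. Rragd stood at 10.3 ± 0.907 CPM on NT (SD, n = 5), 13.1 ± 1.06 on RT and 13.2 ± 1.63 on HF (SD, n = 6 each). The log2 fold changes against NT were 0.36 ± 0.09 on HF (SE, edgeR adjusted p = 0.0239) and 0.35 ± 0.09 on RT (SE, adjusted p = 0.0211). On RT all libraries lay above all NT libraries, and on HF the lowest, at 10.2 CPM, lay inside the NT range. The HF call was lost without NT 3 or HF 5 (adjusted p = 0.0695 and 0.0639) and when RT was left out of the fit (0.0557), and the RT call without NT 3, RT 2 or RT 3 (adjusted p = 0.0631, 0.0566 and 0.0545).

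Flcn stood at 77.1 ± 1.67 CPM on NT (SD, n = 5), 83.9 ± 2.36 on RT and 90.5 ± 2.11 on HF (SD, n = 6 each). No library of one surface overlapped those of another, in the order NT, RT, HF. The log2 fold changes were 0.23 ± 0.03 for HF against NT (SE, edgeR adjusted p = 0.00013) and 0.12 ± 0.03 for RT against NT (SE, adjusted p = 0.0381), and the difference of HF from RT, 0.11 ± 0.03, did not pass (SE, adjusted p = 0.20). The HF call held without each single library (adjusted p up to 0.000765). The RT call was lost in 9 of 17 such fits (without NT 1, NT 3, NT 4, NT 5, RT 1, RT 2, RT 3, RT 4 or RT 6, adjusted p up to 0.0924), with no filter beyond 1 count (adjusted p = 0.107) and in a fit of RT and NT alone (adjusted p = 0.0744).

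Among the other regulators Lamtor1, which anchors the Rag GTPases to the lysosome, rose on RT with a log2 fold change of 0.16 ± 0.04 (SE, edgeR adjusted p = 0.016), and lost the call without NT 3 (adjusted p = 0.0634). Sesn1, which senses leucine upstream of mTORC1, fell on RT, at -0.17 ± 0.04 (SE, adjusted p = 0.00497). Over the wider list's 27 tested regulators, 2 rose and 0 fell on HF, and 3 rose and 1 fell on RT, both against NT. Over all genes 2.33% passed on HF and 3.97% on RT.

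In the wider hydrolase and sorting list, Igf2r, the receptor that carries hydrolases tagged with mannose 6-phosphate to the lysosome, was higher on both topographies. It stood at 92.9 ± 6.97 CPM on NT (SD, n = 5), and at 107 ± 2.34 on RT and 107 ± 1.49 on HF (SD, n = 6 each). All libraries of RT and HF lay above all NT libraries. The log2 fold change was 0.20 ± 0.04 in each comparison with NT (SE, edgeR adjusted p = 0.00253 on HF and 0.00135 on RT), and both calls held without each single library (adjusted p up to 0.0121). Its promoter, printed above, holds GTCACGTG at 2 places, and the one beside the start runs on past it into the full palindrome.

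Other hydrolases gave smaller changes. Tpp1 (a tripeptidyl peptidase) rose on HF with a log2 fold change of 0.14 ± 0.03 (SE, edgeR adjusted p = 0.0264), and Man2b1 (alpha-mannosidase) with 0.16 ± 0.04 (SE, adjusted p = 0.0389). The call of Tpp1 was lost without NT 5 or HF 5 (adjusted p = 0.0506 and 0.0633), and that of Man2b1 in 6 of 17 fits (NT 2, NT 3, NT 5, HF 2, HF 4 and HF 6 left out in turn, adjusted p up to 0.118). Neither passed when RT was left out of the fit (adjusted p = 0.0761 and 0.0753). On RT, Ctso (cathepsin O) fell, at -0.18 ± 0.04 (SE, adjusted p = 0.00801), and held without each single library. Lipa (lysosomal acid lipase) and Lgmn (legumain, an asparaginyl protease) also rose on RT, by 0.15 and 0.19 (adjusted p = 0.0231 and 0.0192), and are named after their values were seen. In all, 3 of 37 hydrolase and sorting genes rose and 0 fell on HF, and 4 rose and 1 fell on RT. The shares over all genes were 2.33% on HF and 3.97% on RT.

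Of the other pump, membrane and autophagy genes few passed. Atp6v0a1, the large membrane subunit of the pump, rose on HF by 0.16 ± 0.04 (SE, adjusted p = 0.00667), with means of 156 ± 7.76 CPM on NT (SD, n = 5) and 175 ± 6.89 CPM on HF (SD, n = 6), as the 1 of 15 tested. On RT 0 of the 15 passed. Past the threshold were 2.33% of all genes on HF and 3.97% on RT. None of 17 membrane proteins passed on either topography against NT by edgeR, with 1 on HF and 2 on RT at an unadjusted p under 0.05, beside 14.2% and 17.1% of all genes. Of 40 autophagy genes 0 passed on HF, with 3 at an unadjusted p under 0.05 (14.2% of all genes), and 1 fell on RT, Fundc1, a receptor for the removal of mitochondria, at -0.18 ± 0.04 (SE, adjusted p = 0.0088).

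**Figure D5:**
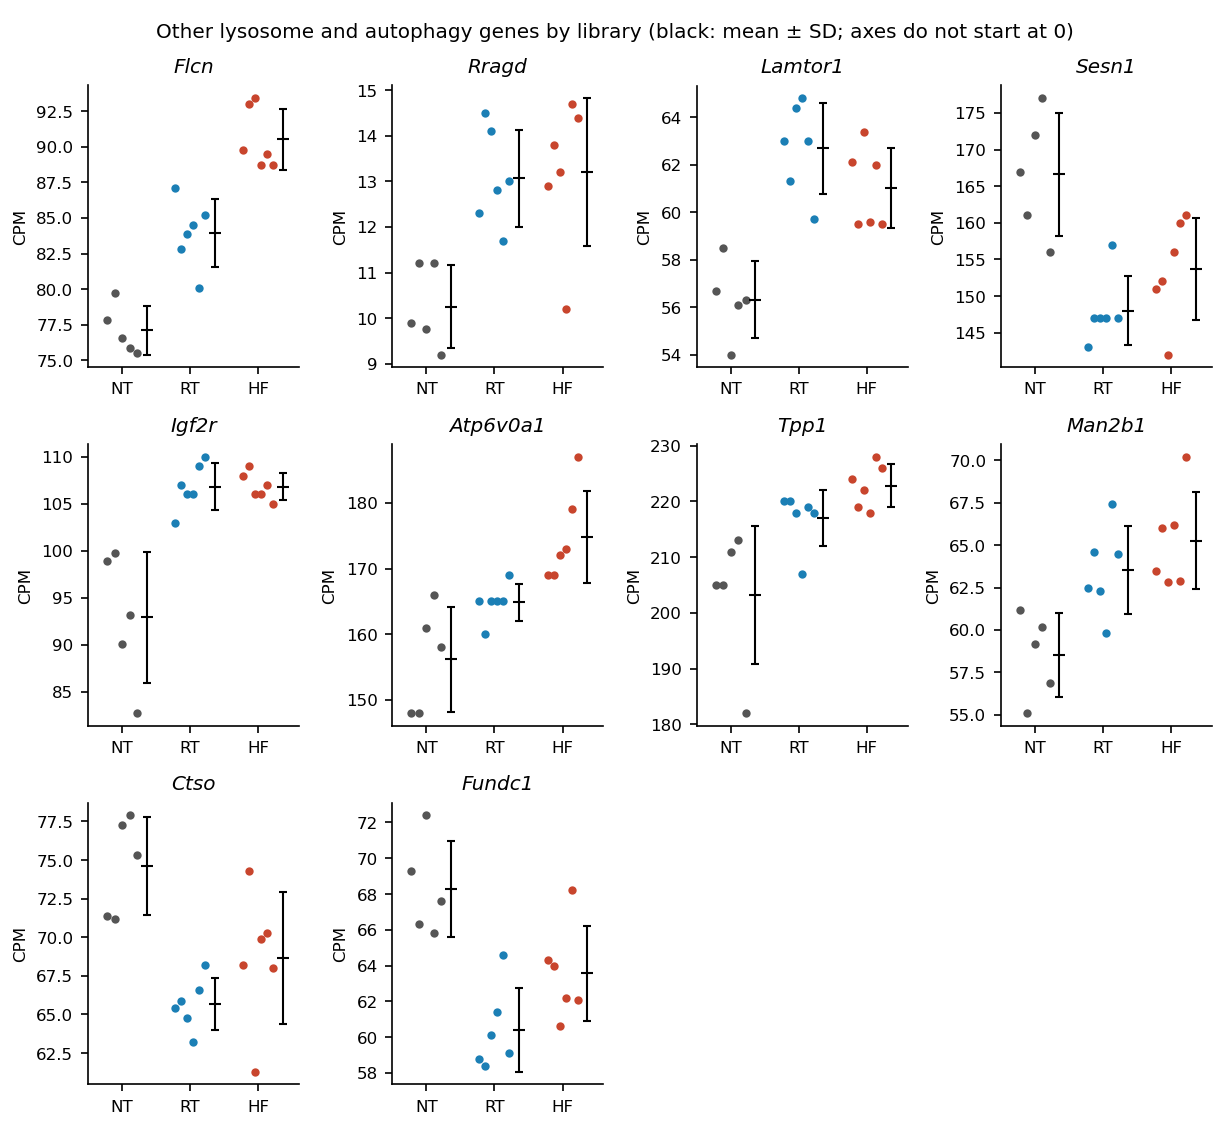
CPM in each library of 10 genes of the wider list, on NT (grey), RT (blue) and HF (red), with mean ± SD in black and axes that do not start at 0. The Flcn libraries of the 3 surfaces do not overlap, Igf2r is higher on both topographies than on NT, and Ctso and Fundc1 are lower on RT than on NT.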

How the data were processed

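RNA-seq counts of 17 libraries were used. The authors deposited raw read counts by gene identifier, not normalized. Per the submitters' processing notes, CASAVA, HISAT2 2.0.5, featureCounts 1.5.0-p3 and GRCm39 were used, with no roles given. The annotation release, strand setting and filters are not given in the sources used here.

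Symbols, exonic lengths and overlaps came from GENCODE M21 and promoters from RefSeq, both on GRCm38, and matched by identifier or symbol, so coordinates are on GRCm38 only. Of 56748 identifiers 52073 had a symbol, and the rest held 0.58% of counts. Genes were kept by filterByExpr, scaled by TMM and tested with edgeR 4.0.16 (quasi-likelihood, robust, 3 group means, no covariate, two-sided). P-values were adjusted over all 15196 genes, with a threshold of 0.05. The SE is the log2 fold change over the square root of F. The fit was tested on simulated data. Alternatives were DESeq2 1.42.0, limma 3.58.1 voom, RLE size factors, no filter beyond 1 count, 2 groups only, the replicate block and each library left out.

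Members and lists were chosen with earlier results of these data known. Members described in each library were those past the threshold in any comparison, the 4 with the smallest p in each, and Tfeb and Tfe3. Of the wider list, up to 6 genes past the threshold with the smallest p were named per comparison; some results are not reported here.

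The libraries were treated as unpaired, because what a replicate number marks is not stated. Of 16 pairs with the same number in different groups, 2 had a correlation of deviations over 0.1. The 80 pairs with different numbers ran from -0.134 to 0.061, so none of them did. The median was 0.0459 for the same number and -0.0171 for different numbers. Pairing was therefore not excluded, and the replicate block is given as an alternative.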

Additional observations from a re-analysis of the deposited data

Results flagged for a closer look

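For each tested member and surface, the highest and the lowest library were compared with the nearest other library by Dixon's ratio, and 5 of 105 tests passed the 95% critical value. Chance flags about 1 in 20 groups. Ctsd, cathepsin D, stood at 911 CPM in NT 5 and between 749 and 786 CPM in the other 4 NT libraries. Psap, prosaposin, stood at 2619 CPM in NT 1 and between 2911 and 2999 CPM in the others. Lamp1 stood at 550 CPM in HF 1 and between 562 and 566 CPM in the other 5 HF libraries. Npc1, a cholesterol transporter of the lysosomal membrane, stood at 37.9 CPM in HF 5 and between 43.3 and 45.8 CPM in the others. Atp6v0e2 stood at 6.47 CPM in NT 4 and between 3.94 and 4.62 CPM in the others.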

How the results depend on the processing

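Of 1250 fold changes of named genes under other settings, 1144 kept their direction and side of the threshold, 82 lost the threshold, 9 gained it and 15 turned direction. Many of these fold changes did not pass in the main fit either, and fits with a single library left out share the other libraries. The total therefore does not measure how stable the calls are. Calls lost with single libraries left out are given with the genes above. Members past the threshold numbered 3 for HF against NT and 6 with DESeq2. For HF against RT 1 passed, 2 did in a fit of these groups alone and 0 when library 6 of RT and HF was left out (numbers 1 to 5), which was added after the data had been seen. For RT against NT 5 passed, and 3 with limma voom or in a fit of these groups alone. With single libraries left out, the members past the threshold ranged from 0 to 1 between the topographies and from 2 to 5 for RT against NT. Over all genes, HF against NT gave 354, and 564 with DESeq2, 597 with no filter beyond 1 count and 200 in a fit of the groups alone, and HF against RT gave 32, and 84, 148 and 113 in the same order, and 15 among libraries numbered 1 to 5. With single libraries left out the ranges were 202 to 604, 14 to 89 and, for RT against NT (603), 365 to 806.

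Same-numbered libraries had correlations of deviations between -0.0111 and 0.193, with a median of 0.0459 against -0.0171 for different numbers. What a replicate number marks across surfaces is not stated, and whether same-numbered libraries share a batch was not tested. With the replicate block the counts were 637 for HF against NT (594 among numbers 1 to 5), 125 between the topographies and 995 for RT against NT, and 4, 1 and 5 members passed. Under the block Man2b1 in HF against NT did not pass (adjusted p = 0.0535), and Psap did.

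Directions turned only for values far from the threshold. Gaa in RT against NT was -0.012 with the replicate block, -0.0068 among libraries numbered 1 to 5, -0.007 with both, and -0.01 to 0.01 with single libraries left out. Tfe3 in HF against RT was -0.0081 among libraries numbered 1 to 5 and -0.008 with the block there. With single libraries left out, Tfeb in RT against NT ranged from -0.026 to 0.056 and Atg9b in HF against RT from -0.31 to 0.023. The cause was not tested. Among libraries numbered 1 to 5 the calls of Hexa in HF against RT (adjusted p = 0.152), Atp6v0e2 (0.0597), Rragd (0.0579), Tpp1 (0.053) and Man2b1 (0.104) in HF against NT, and Lamp1 (0.0521) and Flcn (0.0837) in RT against NT were lost. Depth limits Atg9b, which rests on 9 to 69 counts per library, and Ctsz, which was not tested.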
